A study of Homo sapiens with 6 samples.

Results

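NF-kappaB is a family of transcription factors that act as dimers of Rel-domain subunits. In resting cells the dimers are held in the cytoplasm by inhibitor of kappaB (IkappaB) proteins; receptor signals activate the IkappaB kinase (IKK) complex, which marks the inhibitor for destruction and lets the dimer enter the nucleus. Many of the pathway's own brakes are NF-kappaB target genes, and in chronic lymphocytic leukemia (CLL) and other B cell cancers the pathway is known for carrying survival signals from the antigen receptor, CD40 and Toll-like receptors. The genes described here are 10 of the 18404 genes tested: the subunits NFKB1, NFKB2, REL, RELA and RELB, the inhibitors NFKBIA and NFKBIE, and the ubiquitin-linked brakes TNFAIP3, TNIP1 and CYLD. They were chosen by name, and each is represented by the probe set annotated to it alone. None of the 10 had a further probe set, alone or shared with another gene.

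The values come from MEC-1, an established human B cell line derived from CLL. Cells received lentiviral short hairpin RNA (shRNA) and were grown in RPMI with foetal calf serum and without phenol red or antibiotics. Total RNA was hybridised to 1 Affymetrix array per sample. A group of 3 arrays holds cells given an shRNA that knocks down UGT2B17, a glucuronidating enzyme with androgens among its substrates, and the other 3 hold cells given a scrambled shRNA. Both groups share the cell line and the lentiviral delivery. How many targeting hairpins were used, how long after delivery RNA was taken and whether replicates were separate cultures are not stated, so a p-value here refers to the spread between these arrays, which may be technical. A consequence of lower UGT2B17, an off-target action of the hairpin and a difference between cultures cannot be told apart.

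UGT2B17 itself, on its single-gene probe set, fell by 0.64 log2 units with the knockdown (limma, adjusted p = 0.00654). That probe set was among the dimmest, at level percentile 2.0 of all genes, so the fall does not measure the size of the knockdown. All 7 measured B cell markers, among them MS4A1, PAX5 and CD79B, lay above the median level of all genes, and none passed the test. Of 36 measured markers of other lineages (T, NK, myeloid, erythroid, platelet, epithelial and fibroblast genes), 4 lay above that median, and 1, the NK cell receptor gene KLRD1, passed, at a log2 fold change of −0.64. The mean level of the T and NK cell list ran from 5.31 to 5.43 on the knockdown arrays and from 5.35 to 5.39 on the scrambled arrays. Scrambled replicate 3 lay farthest from its group mean (0.166 log2 units, root mean square over probe sets, against 0.117 to 0.142 elsewhere).

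Since several of these genes are known NF-kappaB targets, the DNA before their starts is shown first. RefSeq promoter windows (GRCh38.p14) of 300 bases, 250 before and 50 after an annotated start, were at hand for 8 of the 10 genes. RELB and NFKBIE had none. Each window was searched on both strands for the kappaB consensus, a motif of 10 bases made of GGG, a purine, any pair of bases, a pair of pyrimidines and CC. Overlapping matches were counted as 1 site. Of the 8 genes, 7 held a match in at least 1 window, against 13.3% of the 27305 genes with a window. By windows the count was 9 of 15, against 11.3% of 35116. RELA had no match in either of its windows. A match is a description of letters and does not show that a factor binds there.

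The 250 bases before the start are shown for TNIP1, the only one of the 10 genes to pass the expression test, and for TNFAIP3 and NFKBIA, the next by p-value. Each is written 5′ to 3′ on the gene's own strand, with matches to the consensus in capitals. TNIP1 lies on the minus strand, and its stretch, before the first of its 2 annotated starts, is chr5:151081035-151081284. TNFAIP3 lies on the plus strand, at chr6:137867009-137867258, and NFKBIA on the minus strand, at chr14:35404750-35404999.
TNIP1: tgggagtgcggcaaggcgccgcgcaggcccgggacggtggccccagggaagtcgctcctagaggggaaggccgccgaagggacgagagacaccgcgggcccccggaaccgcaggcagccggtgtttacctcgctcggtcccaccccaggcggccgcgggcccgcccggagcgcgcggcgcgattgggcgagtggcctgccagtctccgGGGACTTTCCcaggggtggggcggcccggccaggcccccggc
TNFAIP3: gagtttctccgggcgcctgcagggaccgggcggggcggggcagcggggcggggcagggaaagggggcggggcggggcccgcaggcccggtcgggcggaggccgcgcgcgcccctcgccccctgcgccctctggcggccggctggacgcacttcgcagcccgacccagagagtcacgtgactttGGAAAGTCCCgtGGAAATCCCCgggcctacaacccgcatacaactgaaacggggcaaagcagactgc
NFKBIA: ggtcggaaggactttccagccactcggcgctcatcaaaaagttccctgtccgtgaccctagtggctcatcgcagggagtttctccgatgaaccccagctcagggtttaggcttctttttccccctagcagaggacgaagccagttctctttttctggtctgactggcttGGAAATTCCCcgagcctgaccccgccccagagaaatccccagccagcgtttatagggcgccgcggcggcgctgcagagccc

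In TNIP1 the match began 42 bases before the first of its 2 starts, and the window of the second start held none. In TNFAIP3 a pair of matches began 67 and 55 bases before its only start, both on the opposite strand. In NFKBIA a single match on the opposite strand began 81 bases before its only start. The TNIP1 and TNFAIP3 stretches were rich in G and C, at 77.6% and 74.0%, against 59.2% in NFKBIA.

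Exact letters were shared between genes. The core GGGACTTTCC, read on either strand, stood in windows of 4 of the genes (TNIP1, TNFAIP3, NFKB2 and CYLD) and in 0.191% of all windows. The core GGGAATTTCC stood in windows of 3 (NFKB1, REL and NFKBIA) and in 0.145% of all windows. These sites in the other genes are shown with the bases around them, 5′ to 3′ on the gene's strand, all of them the plus strand, with the match in capitals.
NFKB1, chr4:102501300-102501329: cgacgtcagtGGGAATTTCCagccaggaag
REL, chr2:60881518-60881546: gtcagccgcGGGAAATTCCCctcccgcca
NFKB2, chr10:102395674-102395703: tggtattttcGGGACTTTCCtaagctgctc
CYLD, chr16:50741887-50741916: ttgacagagcGGAAAGTCCCttcggccggc

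The NFKB1 match began 49 bases before the first of its starts and the REL match 47 before its only one. NFKB2, with 3 annotated starts, held the most sites, 2 before the second start and 2 before the third. The CYLD site lay farther out, 189 bases before the first start, and the last of its 3 starts had a different match that began at the start itself.

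**Figure D1:**
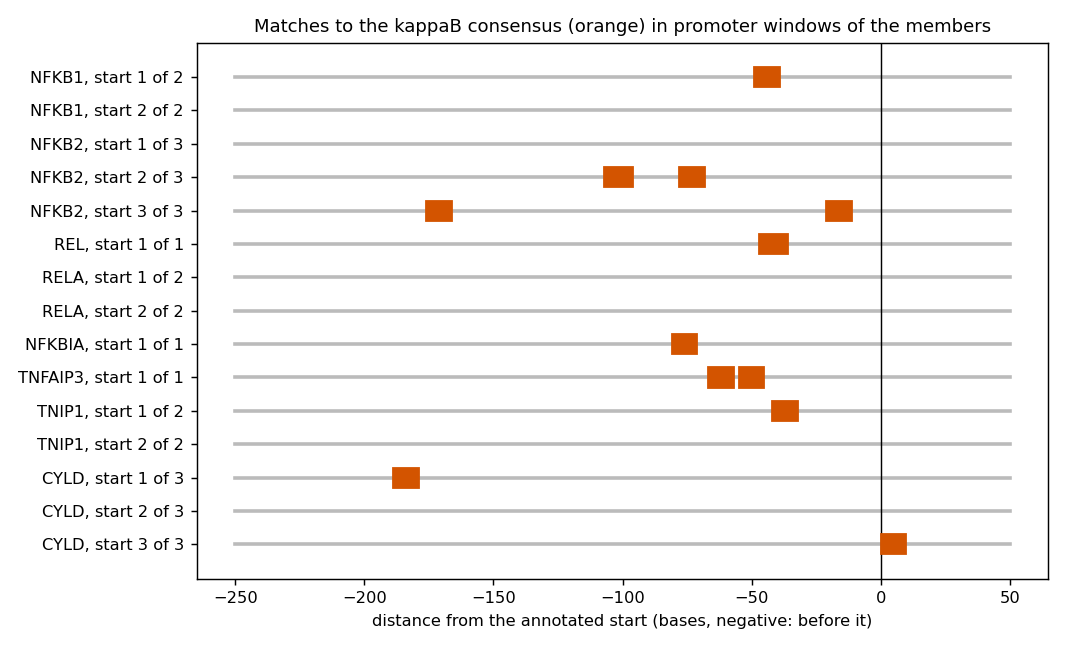
Positions of matches to the kappaB consensus (orange) in the RefSeq promoter windows of the 8 genes that have one, 1 line per annotated start; the x axis is the distance from the start in bases, negative before it. The matches before a start begin between 21 and 189 bases from it, 1 CYLD match begins at a start, and RELA has none in either window.

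With UGT2B17 knockdown, 1 of the 10 genes passed the test over all genes: TNIP1 rose (limma, Benjamini-Hochberg adjusted p under 0.05 over 18404 genes). The background is 665 of 18404 genes called, or 3.61%, with 1.92% called higher and 1.69% lower. A single call among 10 genes is too few to read as a share. Of the 10 differences, 5 lay above 0 and 5 below, with a median of 0.011 log2 units against −0.002 for all genes. The median absolute difference was 0.176, against 0.085 for all genes, dim ones included. The 3 knockdown arrays did not overlap the 3 scrambled arrays for 7 of the 10 genes, 4 with the knockdown above and 3 with it below, where 24.8% of all genes did not overlap, 11.8% with the knockdown above and 13.1% below. All 10 probe sets were bright, at level percentile 70.9 or higher. Among the 5355 genes at or above that level, 5.49% were called and 39.1% did not overlap. The median absolute difference was not set against that of these brighter genes. An exact permutation test over 3 against 3 arrays cannot go below p = 0.1 (two-sided), the value that each of the 7 genes had.

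**Figure D2:**
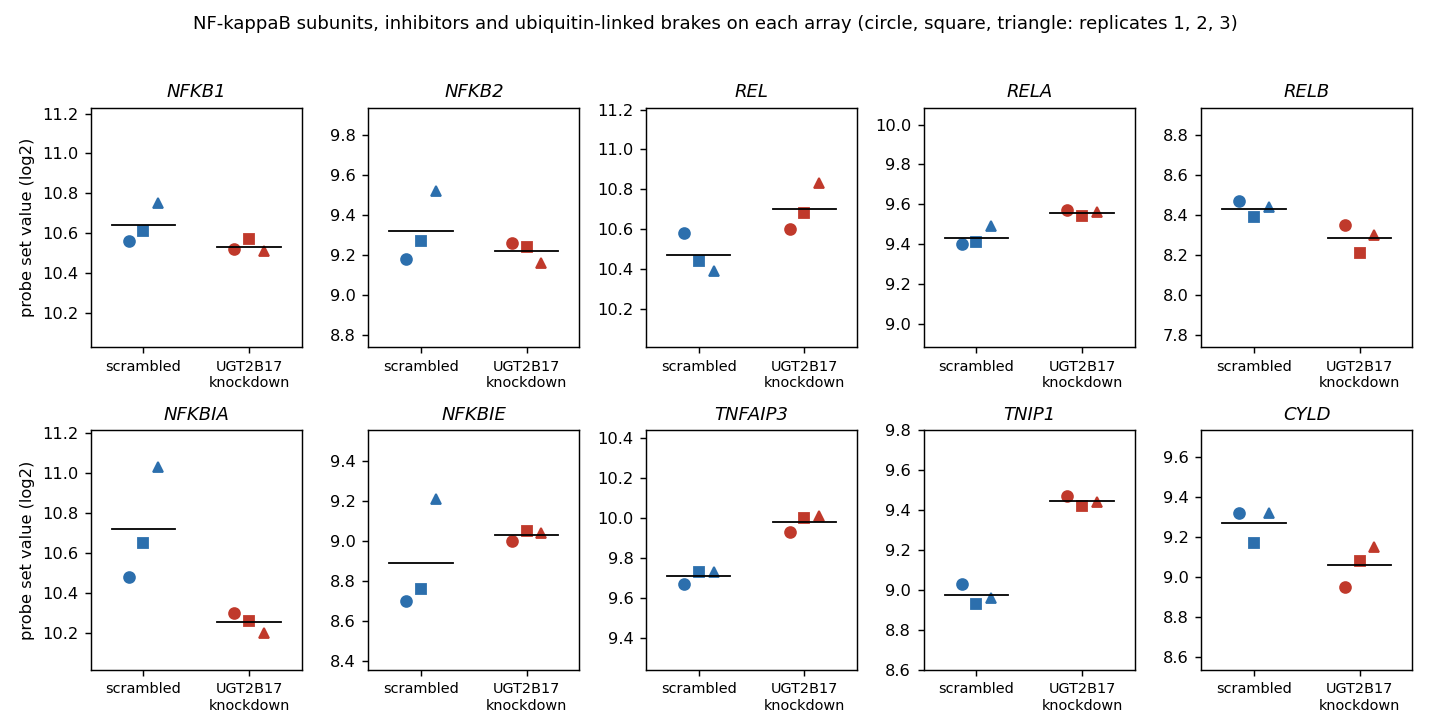
Log2 probe set value of each gene on each array, scrambled in blue and knockdown in red; circles, squares and triangles are replicates 1, 2 and 3, bars are group means, and every panel spans the same number of log2 units. TNIP1, TNFAIP3, REL and RELA separate the groups with knockdown above, and NFKBIA, RELB and CYLD with knockdown below. Scrambled replicate 3 is the highest array for NFKB1, NFKB2, NFKBIA and NFKBIE.

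TNIP1 encodes a ubiquitin-binding partner of the A20 protein that restrains signalling to NF-kappaB. Its log2 values were 9.47, 9.42 and 9.44 on the knockdown arrays and 9.03, 8.93 and 8.96 on the scrambled arrays. The groups were wide apart, and no array of either group came near the other. The means were 9.44 ± 0.027 with the knockdown and 8.97 ± 0.053 with the scrambled shRNA (SD, n = 3 each). TNIP1 thus rose by 0.47 ± 0.063 log2 units (SE; 95% interval 0.33 to 0.61), or 1.38-fold, with an adjusted p of 0.00722 in limma. By p-value it ranked 106th of the 18404 genes.

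TNFAIP3 encodes A20, which edits ubiquitin chains on signalling proteins and is itself a classical NF-kappaB target. Its values were 9.93, 10.0 and 10.01 on the knockdown arrays and 9.67, 9.73 and 9.73 on the scrambled arrays. All knockdown arrays lay above all scrambled arrays, with little spread in either group. The difference was 0.27 ± 0.062 log2 units (SE; 95% interval 0.13 to 0.41), or 1.21-fold, and it missed the threshold narrowly (limma, adjusted p = 0.0506). The call was made after a further quantile normalisation (adjusted p = 0.0317), with brighter genes only (0.026), with an intensity trend (0.0259) and with array weights (0.00418), which rested the scrambled group almost on replicate 2 (weight 6.12 against 0.549 and 0.25). Over all alternatives the adjusted p ran up to 0.195, and leaving out no single array made the call.

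CYLD encodes a deubiquitinase that removes the chains on which IKK activation depends. It read 8.95, 9.08 and 9.15 on the knockdown arrays and 9.32, 9.17 and 9.32 on the scrambled arrays. The knockdown arrays lay below the scrambled arrays, but knockdown replicate 3 and scrambled replicate 2 almost met. The difference of −0.21 ± 0.078 log2 units (SE; 95% interval −0.38 to −0.028) did not pass (limma, adjusted p = 0.211). The 3 ubiquitin-linked brakes therefore had differences of both signs, and 1 of them passed.

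NFKBIA encodes IkappaB-alpha, the inhibitor that is destroyed and resynthesised in each round of canonical signalling. Its values were 10.3, 10.26 and 10.2 on the knockdown arrays and 10.48, 10.65 and 11.03 on the scrambled arrays. The knockdown arrays were close together and all lower, while the scrambled arrays were spread out, with replicate 3 the highest. The means were 10.26 ± 0.053 and 10.72 ± 0.28 (SD, n = 3 each). The difference of −0.47 ± 0.13 log2 units (SE; 95% interval −0.75 to −0.18) was as large in size as that of TNIP1 and did not pass (limma, adjusted p = 0.0849). Without scrambled replicate 3 it was −0.31 (adjusted p = 0.0614), and without scrambled replicate 1 it was −0.59 and passed (adjusted p = 0.0363). It also passed with the same array weights (adjusted p = 0.00368), and over all alternatives the adjusted p ran up to 0.248.

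NFKBIE encodes IkappaB-epsilon, an inhibitor that is prominent in B cells and is known as a site of mutations in CLL. It read 9.0, 9.05 and 9.04 on the knockdown arrays and 8.7, 8.76 and 9.21 on the scrambled arrays. Scrambled replicates 1 and 2 lay below every knockdown array and replicate 3 above every one, so the groups overlapped. The difference was 0.13 ± 0.12 log2 units (SE; 95% interval −0.14 to 0.41; limma, adjusted p = 0.635). Without scrambled replicate 3 it was 0.29 and passed (adjusted p = 0.0404), and with those array weights it was 0.26 and passed (0.0237). Over all alternatives the adjusted p ran up to 0.899.

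For both inhibitors scrambled replicate 3 stood apart from replicates 1 and 2, by 0.46 log2 units for NFKBIA and 0.48 for NFKBIE. A gap at least that large was found for 3.55% and 3.21% of all genes. For NFKB2 and NFKB1 the gap was 0.30 and 0.17. Scrambled replicate 3 was the highest of the 6 arrays for these 4 genes, as it was for 28.9% of all genes. For TNIP1, TNFAIP3 and RELB the gap was −0.027, 0.029 and 0.0063.

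**Figure D3:**
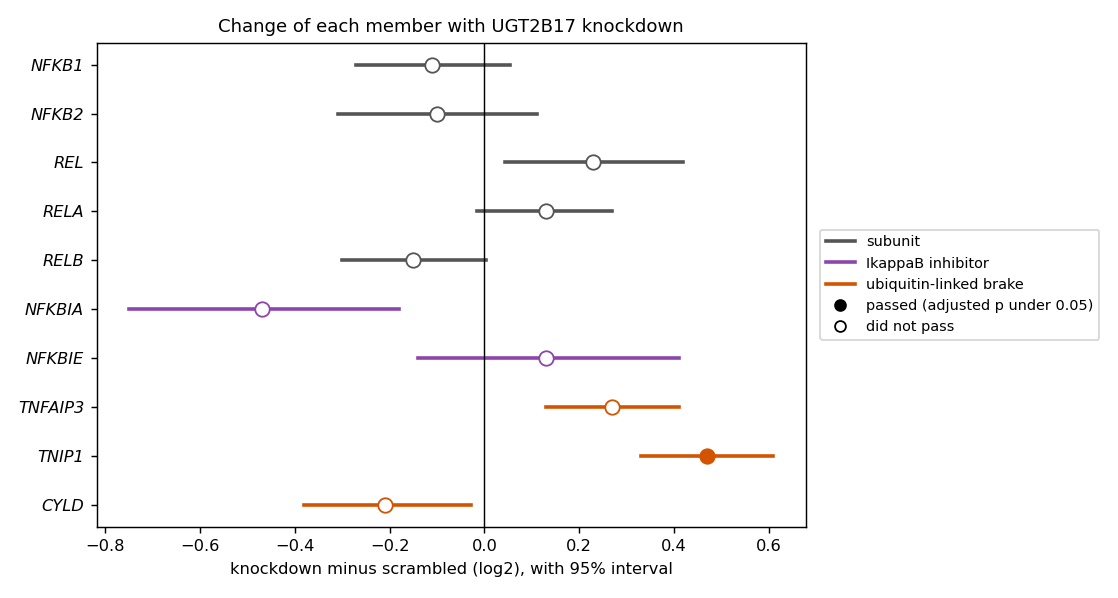
Difference of knockdown minus scrambled in log2 units for each gene, with its 95% interval unadjusted for the number of genes, coloured by role; a filled point passed the test over all genes and an open point did not. TNIP1, at 0.47, is the only filled point, and NFKBIA, at −0.47, has the widest interval.

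None of the 5 subunits passed. RELA, the main transactivating subunit of the canonical pathway, read 9.57, 9.54 and 9.56 on the knockdown arrays and 9.4, 9.41 and 9.49 on the scrambled arrays. The groups did not overlap, but the difference was small, at 0.13 ± 0.062 log2 units (SE; 95% interval −0.015 to 0.27; limma, adjusted p = 0.332). REL, the c-Rel subunit that dominates in activated B cells, read 10.6, 10.68 and 10.83 against 10.58, 10.44 and 10.39. Knockdown replicate 1 and scrambled replicate 1 nearly touched, and the difference was 0.23 ± 0.082 (95% interval 0.044 to 0.42; adjusted p = 0.182).

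NFKB1 encodes p105, the precursor of the p50 subunit, and read 10.52, 10.57 and 10.51 on the knockdown arrays and 10.56, 10.61 and 10.75 on the scrambled arrays. The groups overlapped, and the difference was −0.11 ± 0.071 log2 units (SE; limma, adjusted p = 0.484). NFKB2 encodes p100, the precursor of p52 and the inhibitor that is processed in the non-canonical pathway; it read 9.26, 9.24 and 9.16 against 9.18, 9.27 and 9.52. Its groups overlapped too, at −0.10 ± 0.092 (adjusted p = 0.626). Without scrambled replicate 3 the differences of NFKB1 and NFKB2 were −0.051 and −0.0045. RELB, the partner of p52, read 8.35, 8.21 and 8.3 against 8.47, 8.39 and 8.44. All knockdown arrays lay below the scrambled arrays, with a difference of −0.15 ± 0.066 (95% interval −0.3 to 0.0036; adjusted p = 0.288). The intervals of RELA, RELB, NFKB1 and NFKB2 leave room for a change of up to 0.31 log2 units in size. That of REL lay above 0 and reached 0.42. A failure to pass with 3 arrays a group therefore does not show that these subunits were unchanged.

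**Figure D4:**
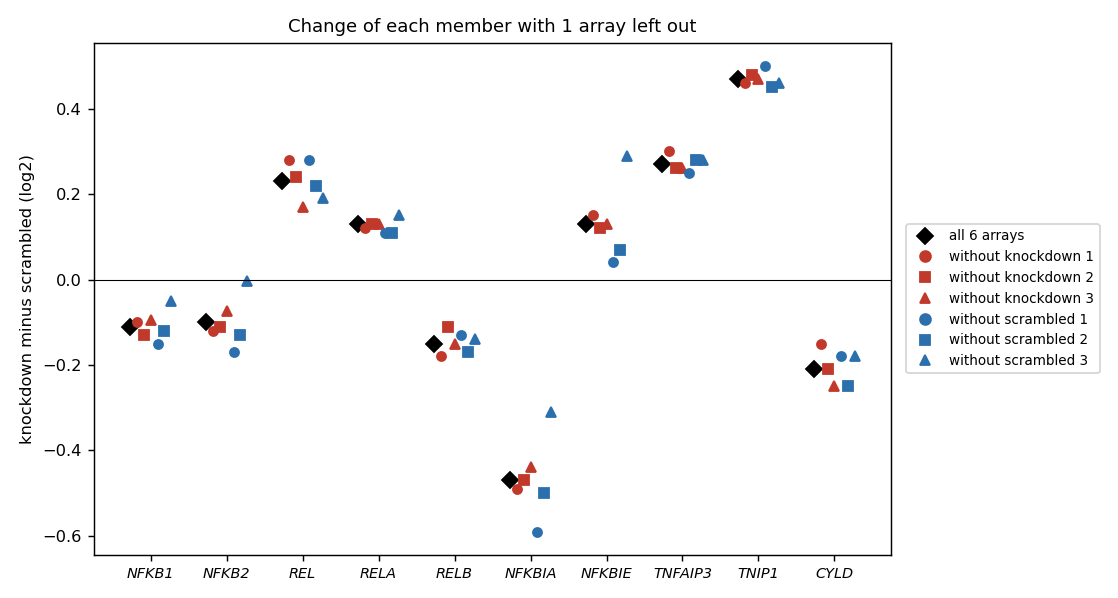
Difference of knockdown minus scrambled in log2 units for each gene with all 6 arrays (black diamond) and with each array left out in turn (red, a knockdown array; blue, a scrambled array). TNIP1 stays between 0.45 and 0.50, whereas NFKBIA moves from −0.59 to −0.31 and NFKBIE from 0.04 to 0.29 with the scrambled array left out.

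All 10 differences kept their sign under other normalisation, with array weights and with each array left out in turn. NFKB2 came to −0.0045 without scrambled replicate 3. The rest of the 16 alternative settings changed only the error estimate or the features, and no difference of these genes could move there. TNIP1 also kept its call in all 16, with adjusted p from 0.000218 to 0.0454. NFKB1, NFKB2, RELB and CYLD were called in none of them, and REL and RELA only with the array weights that favoured scrambled replicate 2 (adjusted p = 0.0148 and 0.046).

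By the root mean square difference between profiles over the 6 arrays, each centred on its own mean, the genes most like TNIP1 were SLC37A3, DACT1 and MPZL3, at 0.035, 0.043 and 0.044 log2 units. Among the other 9 genes described here the nearest to TNIP1 were TNFAIP3, at 0.12, and REL, at 0.14, and the farthest was NFKBIA, at 0.5. These distances come from the same 6 arrays as the test and add no separate evidence.

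Upstream of the dimers, the list of the IKK complex and its activating kinases had 10 measured genes, of which 1 rose, 0 fell and 9 did not pass. TAB2, an adaptor that brings the kinase TAK1 to ubiquitin chains, read 9.35, 9.51 and 9.45 on the knockdown arrays and 9.09, 8.99 and 8.99 on the scrambled arrays. Every knockdown array lay above every scrambled array, and TAB2 rose by 0.41 ± 0.069 log2 units (SE; limma, adjusted p = 0.0167). Its call was lost without knockdown replicate 2 or 3 or scrambled replicate 2 (adjusted p = 0.0922, 0.0808 and 0.0783), or when all deposited probe sets were tested (0.0677). MAP3K14, the NIK kinase of the non-canonical pathway, read −0.32 ± 0.091 and IKBKE, an IKK-related kinase, −0.28 ± 0.085 as differences, and neither passed (adjusted p = 0.103 and 0.127). The median difference of the list was −0.083. TAB1 was not analysed here.

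In the list of receptor adaptors and ubiquitin ligases 0 of 15 measured genes passed in limma, where 3.61% of all genes did. Against 18.2% of all genes, 2 of the 15 had an unadjusted p under 0.05. These were TRAF5, an adaptor of TNF receptor family members, at 0.38 ± 0.10 log2 units (adjusted p = 0.0777), and CUL1, the scaffold of the ligase that ubiquitinates IkappaB proteins, at −0.25 ± 0.088 (adjusted p = 0.171). TRAF5 passed without scrambled replicate 1 (adjusted p = 0.0384). UBE2V1, a subunit of the enzyme that builds K63-linked chains, read 0.14 ± 0.063 (adjusted p = 0.281), and a further probe set shared with the neighbouring gene PEDS1 read 0.05. The list median was −0.003. TRAF2, BIRC3 and RIPK1 were not analysed here.

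A further list joined the antigen receptor route through BCL10 and MALT1 with receptors of the TNF family. Of its 10 measured genes, 1 rose, 1 fell and 8 did not pass, where 3.61% of all genes were called. TNFRSF1B, the TNF receptor TNFR2, read 9.64, 9.66 and 9.66 on the knockdown arrays and 9.31, 9.22 and 9.12 on the scrambled arrays. The knockdown arrays were almost equal and all higher, and the gene rose by 0.43 ± 0.069 log2 units (SE; limma, adjusted p = 0.0138). PRKCB, a protein kinase C that acts below the B cell receptor, read 9.15, 9.14 and 9.14 against 9.42, 9.49 and 9.57. It fell by 0.35 on the log2 scale with no overlap (SE 0.065; adjusted p = 0.0241). Both calls were lost without any 1 of the 3 knockdown arrays or scrambled replicate 2, with adjusted p from 0.0639 to 0.0772 for TNFRSF1B and from 0.0927 to 0.11 for PRKCB. Testing every deposited probe set also ended both (0.059 and 0.0791). CD40, a costimulatory receptor, read −0.23 ± 0.067 (adjusted p = 0.111), and passed without scrambled replicate 3 (adjusted p = 0.0484).

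Among 18 other measured IkappaB proteins and brakes, 2 fell, 0 rose and 16 did not pass, where 3.61% of all genes were called. Of the 18 differences 14 lay above 0, as did 9074 of 18404 over all genes. The list median was 0.042 log2 units. TNIP3, a relative of TNIP1, read 5.34, 5.41 and 5.1 on the knockdown arrays and 5.99, 6.17 and 5.97 on the scrambled arrays. The groups were far apart in the direction opposite to TNIP1, and TNIP3 fell by 0.76 on the log2 scale (SE 0.096; limma, adjusted p = 0.0062). Its probe set was dim, at level percentile 29.1. NFKBIZ, a nuclear IkappaB protein that helps switch on secondary target genes, read 7.69, 7.66 and 7.76 against 8.18, 8.1 and 8.16, and fell by 0.44 (SE 0.064; adjusted p = 0.00979). Its call was lost without knockdown replicate 1 or 2 (adjusted p = 0.052 and 0.0647). BCL3, a nuclear IkappaB protein that acts with p50 and p52, read 0.31 ± 0.089 and did not pass (adjusted p = 0.101). SPATA2 was not analysed here.

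**Figure D5:**
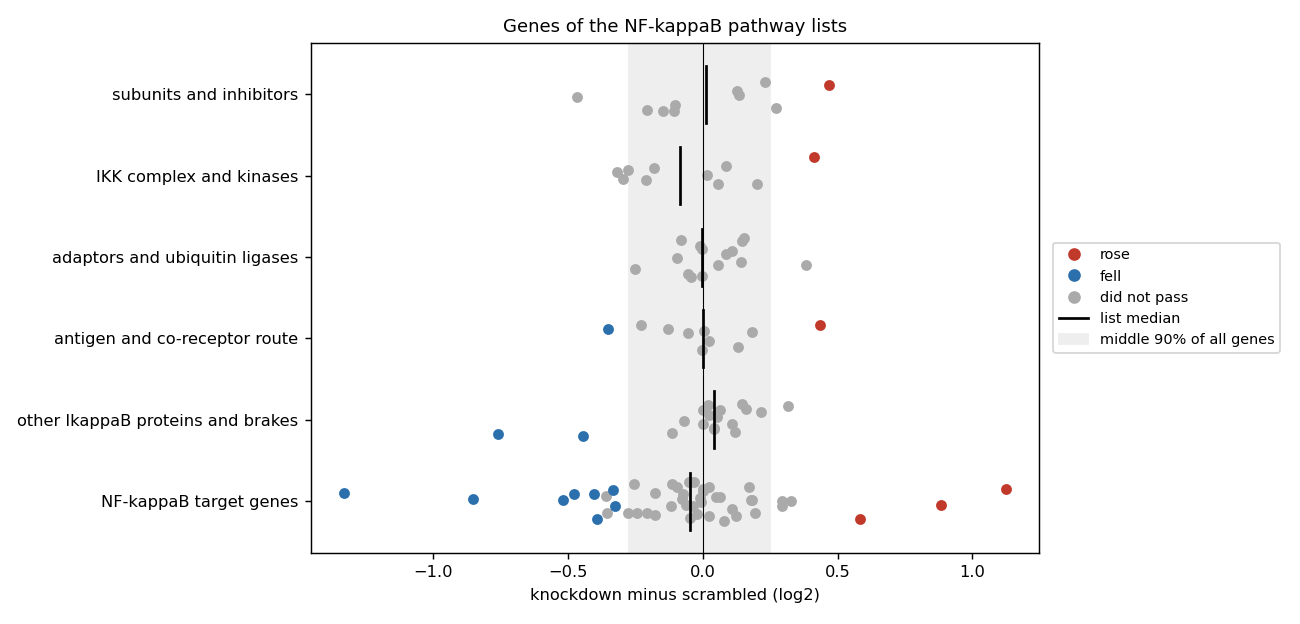
Difference of knockdown minus scrambled in log2 units for every measured gene of the 6 lists, 1 point per gene, red where it rose, blue where it fell and grey where it did not pass; black bars are list medians and the grey band holds the middle 90% of all genes. The target list has 3 red and 8 blue points, and the list medians lie between −0.083 and 0.042.

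Of 49 measured NF-kappaB target genes, 3 rose, 8 fell and 38 did not pass, so 22.4% were called against 3.61% of all genes. The list was drawn up with earlier results of these data known, and the share supports nothing further. The median difference was −0.046 log2 units. CSF2 was not analysed here. The 3 that rose were CCL20, which signals through the receptor CCR6, at 1.12 ± 0.11 log2 units (SE), RGS1, a regulator of G protein signalling, at 0.89 ± 0.084, and CCL22, a chemokine that attracts CCR4-bearing T cells, at 0.58 ± 0.093. Of the 8 that fell, CD86, a costimulatory ligand, stood at −1.33 ± 0.097 and CCND2, cyclin D2, at −0.85 ± 0.14. TNFAIP8, an apoptosis regulator, stood at −0.52 ± 0.067, CD44, a hyaluronan receptor, at −0.48 ± 0.071, and IRF1, an interferon-regulated transcription factor, at −0.40 ± 0.076. CD83, an activation marker, stood at −0.39 ± 0.07, IER3, an early response gene, at −0.33 ± 0.064 and CCR7, a homing receptor, at −0.33 ± 0.067. Over the 11 genes the limma adjusted p ran from 0.000834 for CD86 to 0.0346 for CCR7.

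The arrays behind the 4 largest differences read as follows. CD86 read 6.86, 7.1 and 7.06 on the knockdown arrays and 8.35, 8.18 and 8.49 on the scrambled arrays. CCL20 read 6.51, 6.81 and 6.67 against 5.53, 5.74 and 5.35, and RGS1 read 10.57, 10.67 and 10.71 against 9.88, 9.8 and 9.61. CCND2 read 7.18, 7.26 and 7.28 against 7.89, 7.92 and 8.46. In all 4 the groups lay well apart, and scrambled replicate 3 was the extreme array on the scrambled side, farthest from the knockdown. CD86, RGS1, CCL20 and TNFAIP8 kept their calls in every alternative, except that CCL20, at level percentile 35.7, was not tested with brighter genes only. The other 7 lost theirs in some, and the number of target genes called was 4 without knockdown replicate 1 or 3, 5 without knockdown replicate 2 and 6 without scrambled replicate 2, fits in which 152 to 188 genes were called in all. It was also 4 when all deposited probe sets were tested. Of the 39 target genes with a promoter window, 20 held a kappaB match, and of the 8 such genes that were called, 6 did: CD86, RGS1, CCL20, CCL22, CD83 and IRF1, of which 3 rose and 3 fell.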

How the data were processed

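Arrays from MEC-1 cells, 3 with UGT2B17 shRNA and 3 with scrambled shRNA, were grouped by their labels. The authors deposited log2 values from RMA, per the submitters' processing notes: background correction, quantile normalisation and a summary per probe set. Version and library files are not given in the sources used. Fold changes of dim probe sets are compressed by RMA, and a shift common to most genes would be removed by the quantile step. The sources give no batch or scan information. Of 32321 probe sets, 19158 had 1 gene symbol in the platform annotation, 1388 had several and 11775 were not listed and stay unnamed; 19128 of the first matched RefSeq by Entrez identifier. The probe set with the highest mean represented each gene. No dim genes were removed.

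The test was limma 3.58.1 under R 4.3.3 (lmFit, eBayes, two-sided, no covariate; 4.82 prior degrees of freedom), with Benjamini-Hochberg adjustment over 18404 genes and a threshold of 0.05. The procedure was tested on simulated data. The genes described, the pathway lists, the marker lists and the naming rule were chosen with earlier results of these data known. The rule names all 10 genes, every list gene that passed or the 3 with the smallest p, and the 3 genes most like each passing gene. Alternatives covered normalisation, dim genes, variance prior, array weights, features, replicate block, threshold and leaving out each array. The number of arrays limits the precision.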

Additional observations from a re-analysis of the deposited data

How the results depend on the processing

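Of the alternatives, 16 refitted the comparison and 1 loosened the threshold to an adjusted p under 0.1. Every one of the 10 genes kept its direction in those of the 16 that can change a difference. Array weights gave 3511 genes called over all genes against 665, 6 of the 10 NF-kappaB genes (5 higher and 1 lower), 4 genes of the IKK and activating kinase list, 1 adaptor, 4 other brakes and 19 targets. The weights of the scrambled arrays were 0.549, 6.12 and 0.25, so the scrambled group rested almost on replicate 2 there. MAP3K14, IKBKE, TRAF5, CD40 and BCL3 were among the genes that passed only with these weights or, for TRAF5 and CD40, also without 1 scrambled array. Testing all deposited probe sets gave 165 probe sets called and 4 targets. It gave 0 genes of the IKK and activating kinase list and 0 of the antigen and TNF family receptor list. With an adjusted p under 0.1 there were 1207 genes, 3 of the 10 (TNIP1, TNFAIP3 and NFKBIA) and 1 adaptor. Of the 10, 2 were called after a further quantile normalisation, with brighter genes only and with an intensity trend, settings in which the calls over all genes also rose, to 754, 796 and 821. With brighter genes only, where TNIP3 was not tested, 1 other brake was called. The replicate number as a block gave 367 genes and 7 targets. It gave 0 of the IKK and activating kinase list and 1 of the antigen and TNF family receptor list, TNFRSF1B. Deviations of same-numbered arrays correlated at −0.054, −0.067 and −0.033, so no shared deviation by number was seen. Whether same-numbered arrays were prepared together is not stated. The block cannot change a difference in this balanced layout, so a call lost under it is not a smaller difference. Leaving out 1 array gave 152 to 759 genes over all, 1 to 2 of the 10 and 4 to 14 targets. By list it gave 0 to 1 IKK and activating kinase genes, 0 to 1 adaptors and 1 to 2 other brakes. The antigen and TNF family receptor list gave 0 to 3. Fits without an array have fewer residual degrees of freedom, but the calls over all genes were 694 and 759 without scrambled replicates 1 and 3 and 152 to 188 without any other array. The cause of a moved count was not tested. Averaging probe sets per gene left the 10 genes' values as they were, since each has 1 probe set.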
